A study of Mus musculus with 54 samples.

Results

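The endothelial genes are 38 genes that mark endothelial cells or their blood-vessel-forming precursors in the mouse. They were taken by name: a probe set belonged to a gene when the platform annotation gave that gene alone, and each gene was read from its probe set with the highest mean over all arrays. Of the 38 genes, 37 were measured, out of 14104 genes that a probe set in the deposited values named alone. Gja5 (connexin 40) has no such probe set there. The cells were male CGR8 embryonic stem cells (ESCs), a line of mouse strain 129, and each was also sampled as embryoid bodies (EBs), the cell clusters that form in hanging drops and differentiate without a directing signal. WT cells carried no construct, SCR cells carried a plasmid with a scrambled short hairpin RNA (shRNA), and KD cells carried an shRNA plasmid against Mageb16, a melanoma antigen family gene expressed in ESCs. SCR and KD cells were selected with puromycin after transfection and each is 1 polyclonal population, so the construct cannot be told apart from the population that carries it. RNA of the 3 lines was hybridised undifferentiated (day 0) and at days 2, 4, 12, 15 and 22 to Affymetrix mouse expression arrays, 3 for each line on each day, which makes 18 groups. Whether the arrays of 1 group stem from different cultures is not given in the labels, so p-values measure the spread between these arrays.

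Endothelial cells line blood and lymph vessels. In the embryo they arise from mesoderm that carries the VEGF receptor Kdr, under the brief action of the ETS factor Etv2 and with the blood and vessel regulators Tal1 and Lmo2. Other ETS factors (Fli1, Erg) and SOX factors of the F group (Sox7, Sox18) then maintain the programme, and the cells acquire the junction proteins Cdh5, Cldn5 and Esam and the surface proteins Emcn, Icam2 and Cd34. Some genes of the list are also used elsewhere: Pecam1 and Tek transcripts occur in ESCs, Cd34 and Tal1 in blood progenitors, and Kdr in early mesoderm outside the vessels.

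Promoter sequences are shown for 4 members, Kdr and Etv2 from the genes that peaked at day 4 and Emcn and Cd34 from those highest in late EBs, since the ETS factors Etv2, Fli1 and Erg are members themselves. Each is the 250 bases before the annotated start, read 5′ to 3′ on the gene's strand from the RefSeq table of build GRCm38.p6. They lie at chr5:75978456-75978705 on the minus strand (Kdr), chr7:30635853-30636102 on the minus strand (Etv2), chr3:137340828-137341077 on the plus strand (Emcn) and chr1:194938571-194938820 on the plus strand (Cd34). Capitals mark the ETS core letters CAGGAA or CCGGAA on either strand.
Kdr: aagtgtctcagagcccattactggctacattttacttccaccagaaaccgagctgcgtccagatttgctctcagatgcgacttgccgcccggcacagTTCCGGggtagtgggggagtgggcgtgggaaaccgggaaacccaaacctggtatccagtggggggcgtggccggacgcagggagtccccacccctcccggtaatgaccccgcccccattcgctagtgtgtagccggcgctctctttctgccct
Etv2: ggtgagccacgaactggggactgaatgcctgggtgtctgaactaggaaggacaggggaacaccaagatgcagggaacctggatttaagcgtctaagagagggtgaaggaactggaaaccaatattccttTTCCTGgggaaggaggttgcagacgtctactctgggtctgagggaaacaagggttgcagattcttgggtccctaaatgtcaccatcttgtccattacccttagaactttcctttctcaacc
Emcn: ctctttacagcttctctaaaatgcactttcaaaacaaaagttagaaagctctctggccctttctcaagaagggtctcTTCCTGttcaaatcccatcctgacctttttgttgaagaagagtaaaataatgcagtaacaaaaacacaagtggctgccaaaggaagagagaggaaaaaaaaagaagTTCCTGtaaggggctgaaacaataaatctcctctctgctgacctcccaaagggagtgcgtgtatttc
Cd34: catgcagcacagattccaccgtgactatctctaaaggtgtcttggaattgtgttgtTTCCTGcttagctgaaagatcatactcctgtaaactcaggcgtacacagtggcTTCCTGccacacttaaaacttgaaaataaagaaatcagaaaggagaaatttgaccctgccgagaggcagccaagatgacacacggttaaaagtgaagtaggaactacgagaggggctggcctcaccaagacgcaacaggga
Emcn and Cd34 each held 2 matches, which began 173 and 67 bases before the start of Emcn and 194 and 141 bases before that of Cd34. Kdr held 1 match, to CCGGAA, and Etv2 held 1 match, to CAGGAA. The table held 27 promoters for 22 of the 37 measured members. CAGGAA on either strand was in 16 of these 27 promoters and in 25.7% of all 32851 promoters of the same length. CCGGAA was in 1 of the 27, that of Kdr, and in 12% of all promoters. The longer letters AACAGGAA, which pair the start of a forkhead motif with the ETS core and contain CAGGAA, were in the promoters of Egfl7 and Emcn and in 2.25% of all promoters. The GATA letters AGATAA were in those of Erg and Tal1 (9.99% of all), the E-box CAGCTG in those of Egfl7 and Robo4 (13%), and the SOX letters ACAAAG in those of Apln, Egfl7, Eng and Tek (16.5%). The letters were chosen after the sequences had been seen, and a match describes the letters only.

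Values are log2 signals, and a difference of 1 on this scale is 2-fold. Over the 54 arrays the values of 30939 probe sets lay between 1.65 and 14.03, with array medians of 5.94 to 6.26 and lower quartiles of 4.23 to 4.51. From a level below that quartile, how large a change is cannot be read exactly. The targeted gene Mageb16 read 7.00 to 7.11 in undifferentiated KD cells against 9.93 to 10.09 in WT and SCR cells, and the KD arrays lay below those of both other lines on each day. Replicate 3 lay between the other 2 arrays of its group for 39.3% to 58.3% of probe sets in 17 groups and for 30.4% in 22-day KD EBs, so if replicate 3 is not independent of the others, SDs and p-values are too small. In mixed cultures such as EBs, fewer endothelial cells and less RNA per cell cannot be told apart.

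Calls below come from limma, fitted on all arrays with a mean for each group. A member is called higher or lower at a Benjamini-Hochberg adjusted p under 0.05 over all probe sets, if the difference is also 2-fold or more. Beside the first count of members in a comparison stands the percentage of all 30939 probe sets called there in the same direction. Counts at an unadjusted p under 0.05 take both directions together. They have no such percentage, since that share of all probe sets was not counted.

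The highest of the 18 group means lay in a KD group for 28 of the 37 members, in a WT group for 7 and in an SCR group for 2. For 26 members it lay in KD EBs of day 12, 15 or 22, and for 19 of them at day 15. The place of the highest mean was not counted over all probe sets, so these counts cannot be weighed against a share. Among the 28 are Tie1 and Lyve1, which lay under the lower quartile of their arrays in all 18 groups. At day 4, 18 members in WT, 18 in SCR and 19 in KD EBs lay under the lower quartile of their arrays. At day 15 these numbers were 9 in WT, 13 in SCR and 5 in KD EBs.

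**Figure D1:**
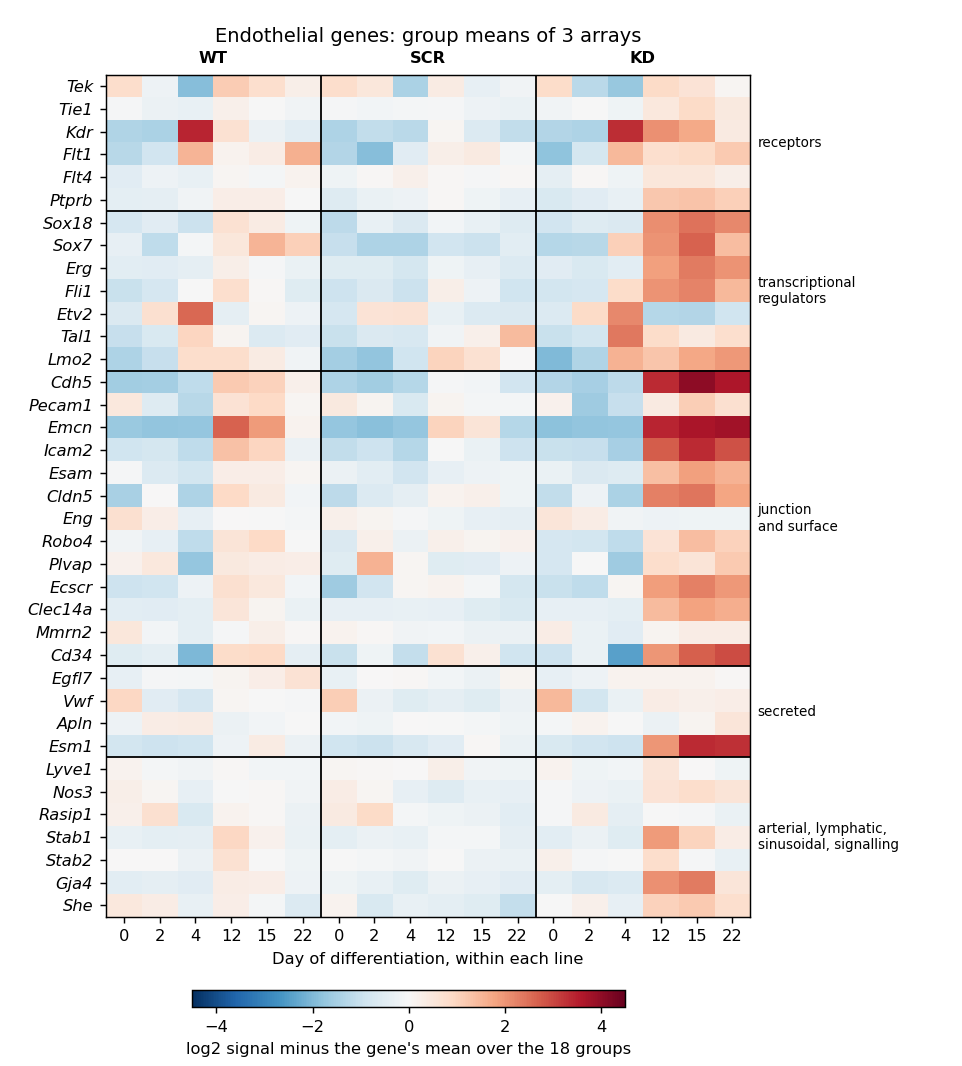
Rows are the 37 measured endothelial genes by role and columns the 18 groups of line and day; colour is the mean log2 signal of 3 arrays minus the gene's mean over all groups. Kdr and Etv2 are highest at day 4 in WT and KD EBs, and Cdh5, Emcn, Icam2 and Esm1 are highest in KD EBs of days 12 to 22.

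From day 0 to day 4 a small set of receptors and regulators rose in WT and KD EBs. In WT EBs 6 members were lower at day 4 than at day 0 (8.19% of all probe sets). There 5 were higher (11.1%), a count near the share over all probe sets. They were Kdr, the main VEGF receptor of endothelial precursors, by 4.78 log2 (SE 0.147, limma adjusted p = 1.82e-27), Etv2 by 3.23, Flt1 (VEGF receptor 1) by 2.76, Lmo2, a bridging protein of the Tal1 complex, by 2.18, and Tal1 by 1.99. In KD EBs 8 members rose (10.9%) and 4 fell (7.43%). The 5 of WT EBs were among the 8, with Kdr at 4.64, Lmo2 at 3.55, Tal1 at 3.37, Flt1 at 3.28 and Etv2 at 2.79, and the other 3 were Sox7 at 2.33, Fli1 at 1.66 and Ecscr, an endothelial surface protein of cell movement, at 1.08. In SCR EBs 2 members rose (7.58%), Ecscr by 1.71 and Etv2 by 1.40, and 3 fell (5.1%). The count of 2 was not above the share over all probe sets. The call of Ecscr in KD EBs was lost without KD day 0 replicate 2 (0.94) or replicate 3 (0.92).

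A fall from day 0 to day 4 could be called only for a gene that read above background in undifferentiated cells. At day 0, 16 members in WT, 15 in SCR and 17 in KD cells lay under the lower quartile of their arrays. Tek, the angiopoietin receptor Tie2, read 6.42, 6.12 and 6.33 in undifferentiated KD cells and 3.94, 3.72 and 3.60 in 4-day KD EBs. Its 3 arrays at day 4 lay below those at day 0 in each line. Tek fell by 2.70 in WT, by 2.23 in SCR and by 2.54 in KD EBs. Vwf, the clotting factor stored by endothelial cells, fell by 1.68 in WT, by 1.65 in SCR and by 1.77 in KD EBs, and Pecam1 (CD31), a junction molecule also found on ESCs, fell by 1.73, 1.14 and 1.24 (log2 differences of -1.73, -1.14 and -1.24). Cd34 fell by 1.48 in WT and by 1.49 in KD EBs, and in WT EBs Plvap, the protein of fenestrae diaphragms, fell by 1.92 and Eng, a TGFβ co-receptor, by 1.09. The call of Eng was lost without WT day 0 replicate 1 (-0.97).

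Undifferentiated cells of the 3 lines gave no call of an endothelial gene in limma: 0 of 37 members passed in KD against SCR, in KD against WT and in SCR against WT, with 7, 11 and 9 members at an unadjusted p under 0.05. Few probe sets passed in these comparisons at all: 0.478% were higher and 0.449% lower in KD than in SCR, 0.255% and 0.798% in KD than in WT, and 0.113% and 0.514% in SCR than in WT cells. At day 2, 1 member was higher in KD than in SCR EBs (1.77% of all probe sets) and 4 were lower (1.83%). Pecam1 read 3.56, 3.60 and 4.02 in KD and 5.35, 5.25 and 5.73 in SCR EBs. Tek read 4.35, 4.25 and 4.16 in KD and 5.90, 5.83 and 6.14 in SCR EBs. The arrays of the lines did not overlap for either gene. The KD arrays of Pecam1 lay under the lower quartile, so the size of its difference is not exact. The differences were -1.72 for Pecam1 (SE 0.177, limma adjusted p = 3.48e-10), -1.70 for Tek (adjusted p = 1.28e-12), -1.57 for Plvap and -1.08 for Robo4, a guidance receptor of stabilised vessels. The higher member was Flt1 at 1.12, which was lost without KD day 2 replicate 2 (0.99). Against WT EBs none of the 37 members passed in KD EBs at day 2 in limma (0.0453% of all probe sets higher, 0.621% lower), with 6 at an unadjusted p under 0.05, and Pecam1 read 4.66, 4.69 and 4.82 in WT EBs.

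At day 4 the receptors and regulators of endothelial precursors separated SCR EBs from both other lines. In KD against SCR EBs 7 members were higher (4.92% of all probe sets) and 3 were lower (4.82%), with a median of -0.03 log2 over the 37 members against 0.00 over all probe sets. Of the 7 transcriptional regulators 5 were higher, of the 6 receptors 2 were, and all 3 lower members were surface proteins. In SCR against WT EBs 6 members were lower (4.5%) and 1 was higher (4.54%). The 6 were all among the 7 of KD against SCR, and both comparisons use the same SCR arrays. With 3 arrays a group, the number of arrays limits the precision of each value.

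Kdr read 10.00, 9.91 and 9.95 in KD, 10.33, 9.86 and 10.03 in WT and 5.71, 5.33 and 5.20 in SCR EBs of day 4. The KD and WT arrays overlapped and all 6 lay more than 4 log2 units above the SCR arrays, close to the level of undifferentiated cells (5.08 to 5.43 in SCR). Kdr was 23.3-fold higher in KD than in SCR EBs (4.54 log2, SE 0.147, limma adjusted p = 1.9e-26). It was lower in SCR than in WT EBs by a log2 difference of -4.66, and KD and WT EBs differed by -0.12 (SE 0.147, adjusted p = 0.852).

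Etv2, the ETS factor that starts endothelial and blood specification, read 8.47, 8.03 and 8.00 in KD, 9.18, 8.03 and 8.53 in WT and 6.73, 6.52 and 6.66 in SCR EBs of day 4. The SCR arrays lay below all KD and WT arrays, at about their level of day 2 (6.38 to 6.84). The difference was 1.53 between KD and SCR EBs (SE 0.196, limma adjusted p = 1.63e-08) and -1.94 between SCR and WT EBs. At day 12 Etv2 read 4.87, 4.85 and 4.45 in KD EBs, below its arrays of day 0. From day 4 to day 12 it fell by 3.44 in KD and by 2.99 in WT EBs.

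Tal1, a basic helix-loop-helix factor of blood and endothelial precursors, read 7.28, 7.68 and 7.35 in KD, 5.65, 6.08 and 6.29 in WT and 4.57, 4.42 and 4.07 in SCR EBs of day 4. The 3 lines did not overlap, with KD highest and SCR lowest. Tal1 differed by 3.08 between KD and SCR EBs (SE 0.212, limma adjusted p = 8.17e-16), by -1.65 between SCR and WT EBs and by 1.43 between KD and WT EBs (adjusted p = 2.42e-05). Lmo2 read 8.57, 8.23 and 8.35 in KD, 7.96, 7.33 and 7.61 in WT and 5.75, 6.14 and 5.98 in SCR EBs, again with no overlap. It differed by 2.43 between KD and SCR EBs and by -1.68 between SCR and WT EBs, and the 0.75 between KD and WT EBs was under 2-fold.

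Flt1 read 8.12, 8.29 and 8.19 in KD, 7.95, 8.62 and 8.17 in WT and 6.31, 6.06 and 6.30 in SCR EBs, and differed by 1.98 between KD and SCR EBs and by -2.02 between SCR and WT EBs. Its KD and WT arrays overlapped, while the SCR arrays stood apart. Sox7, an F-group SOX factor of early endothelium, read 6.08, 6.95 and 6.59 in KD, 4.64, 5.88 and 5.60 in WT and 4.42, 4.01 and 3.80 in SCR EBs, and differed by 2.46 between KD and SCR EBs and by -1.30 between SCR and WT EBs. In KD against WT EBs, where 2 members were higher (0.0679% of all probe sets, or 21) and 0 lower (0.175%), Sox7 differed by 1.17 beside Tal1. That call of Sox7 was lost without WT day 4 replicate 1 (0.80, adjusted p = 0.0675) or without KD day 4 replicate 2 (0.96), which left 1 member called. Fli1 differed by 1.79 between KD and SCR EBs, and by -0.95 between SCR and WT EBs, which was under 2-fold, while its second probe set was called there at -2.49 (limma adjusted p = 1.68e-11).

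**Figure D2:**
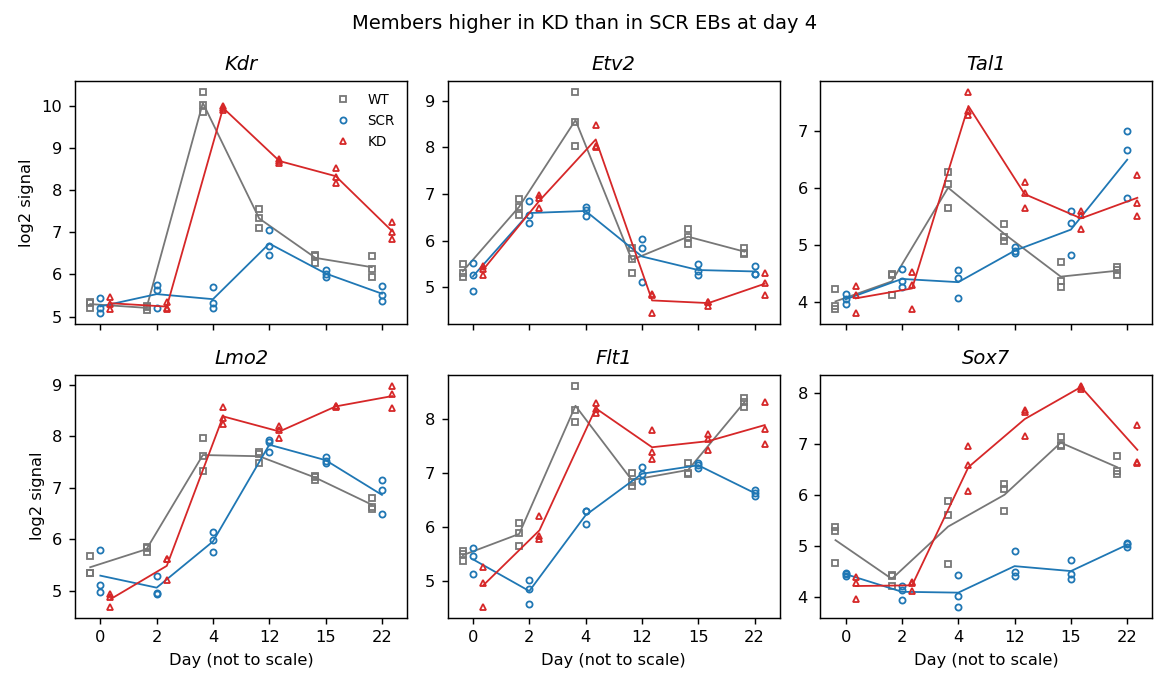
Log2 signal (y axis) of 6 members by day (x axis, not to scale); points are single arrays, 3 for each line and day, and lines join the group means. At day 4 the SCR arrays lie below the KD arrays in each panel, and the Kdr arrays of KD and WT EBs lie between 9.86 and 10.33.

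The 3 members lower in KD than in SCR EBs at day 4 were Plvap, Cd34 and Cldn5, the tight junction protein of the blood-brain barrier. Plvap read 4.62, 4.69 and 4.74 in KD, 4.51, 4.62 and 4.47 in WT and 6.19, 6.50 and 6.38 in SCR EBs. Cd34 read 3.13, 3.03 and 3.27 in KD, 3.43, 3.60 and 3.63 in WT and 4.26, 4.63 and 4.57 in SCR EBs. SCR arrays were the highest of the lines for both genes. The KD and WT arrays of Cd34 lay under the lower quartile and its SCR arrays near it, so the size of its difference is not exact. The differences between KD and SCR EBs were -1.67 for Plvap (SE 0.131, limma adjusted p = 3.54e-14), -1.34 for Cd34 and -1.02 for Cldn5. The call of Cldn5 was lost without SCR day 4 replicate 2 (-0.98) or KD day 4 replicate 2 (-0.92). Plvap was also the 1 member higher in SCR than in WT EBs, at 1.82.

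Markers of undifferentiated cells moved with these day 4 differences. All 8 pluripotency genes measured were lower in KD than in SCR EBs, and 7 of 8 were higher in SCR than in WT EBs. Their summed signal, taken back from the log2 scale, was 4475 to 8101 in KD, 8272 to 12570 in WT and 26290 to 26640 in SCR EBs. Its part in the endothelial differences was not tested. The genes that mark settled endothelium lay low in each line at day 4. Cdh5 read 3.24 to 3.63 in KD, 3.42 to 3.60 in WT and 3.18 to 3.76 in SCR EBs, under the lower quartile of the arrays, and Emcn and Icam2 also lay under it in each line.

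From day 4 to day 12 more members rose than fell in each line. In KD EBs 20 members were higher at day 12 than at day 4 (9.25% of all probe sets) and 3 were lower (4.23%). In WT EBs 12 were higher (6.75%) and 3 lower (3.04%), and in SCR EBs 8 were higher (4.97%) and 0 lower in limma (1.55%), where 19 members had an unadjusted p under 0.05 in either direction. Junction and surface genes made up 11 of the 20 in KD, 9 of the 12 in WT and 4 of the 8 in SCR EBs, where the other 4 were 2 receptors (Tek and Kdr) and 2 regulators (Lmo2 and Fli1). Emcn (endomucin), a sialomucin of veins and capillaries, rose by 5.17 in KD, 4.40 in WT and 2.75 in SCR EBs. Cdh5 (VE-cadherin), the adhesion protein of endothelial junctions, rose by 4.51, 2.31 and 1.21, Cd34 by 4.40, 2.86 and 1.77, and Icam2, an adhesion molecule of resting endothelium, by 4.21, 2.46 and 1.26 in the same order. Esm1 (endocan), a proteoglycan secreted by sprouting tip cells, rose by 2.93 in KD EBs and read 2.87 to 3.29 in WT and 2.66 to 2.95 in SCR EBs at day 12, under the lower quartile. Tek returned, by 2.55 in KD, 3.07 in WT and 1.81 in SCR EBs. The 3 members that fell in KD EBs were Etv2, Tal1 (-1.54) and Kdr (-1.26), and those that fell in WT EBs were Etv2, Kdr (-2.74) and Flt1 (-1.37). Kdr rose by 1.32 over the same days in SCR EBs. The call of Fli1 in KD EBs (1.18) was lost without KD day 4 replicate 1 (0.99) or KD day 12 replicate 1 (0.96), and that of Esam in WT EBs (1.15) without WT day 4 replicate 3 (0.99).

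Late EBs were the stage at which most members differed. In KD against SCR EBs 20 members were higher at day 12 (6.66% of all probe sets), 24 at day 15 (7.56%) and 20 at day 22 (8.56%), with 18 members on each of the 3 days. None was lower on any of them (4.43%, 5.04% and 3.85% of all probe sets). Over the mean of the 3 days 21 members were higher (7.33%) and 0 were lower in limma (3.93%). The median difference was 1.27 against -0.06 over all probe sets. In either direction 34 members had an unadjusted p under 0.05 in limma. At an adjusted p under 0.05 with no minimum fold, 33 were higher and 1 was lower. By role, 9 of 13 junction and surface genes, 5 of 7 transcriptional regulators, 2 of 6 receptors, 1 of 4 secreted proteins and 4 of 7 arterial, lymphatic, sinusoidal and signalling genes were higher. For 21 members the 9 KD arrays of these days did not overlap the 9 SCR arrays. This count was not made over all probe sets, so it cannot be weighed against a share. These 21 members include Tie1 and Flt1, which were under 2-fold over the mean of the 3 days, and not Kdr and Stab1, which were called.

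Of the junction and surface genes, Cdh5 read 8.35, 7.77 and 7.89 in KD, 5.89, 5.61 and 6.00 in WT and 4.85, 3.96 and 4.96 in SCR EBs of day 12. At day 22 it read 8.27, 8.33 and 8.32 in KD, 4.84, 4.86 and 4.99 in WT and 3.71, 3.83 and 3.87 in SCR EBs. The 3 lines did not overlap on either day, with KD highest and SCR lowest. Over the 3 late days Cdh5 differed by 4.03 between KD and SCR EBs (SE 0.104, limma adjusted p = 1.43e-30). The SCR arrays of day 22 lay under the lower quartile, so the size of this difference is not exact. The same holds, among others, for Emcn and Icam2 at day 22 and for Esm1 on all 3 days.

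Emcn read 8.79, 8.60 and 8.70 in 22-day KD EBs, 5.21, 4.85 and 5.15 in WT and 3.66, 3.55 and 3.68 in SCR EBs. At day 12 it read 8.49, 8.19 and 8.38 in KD, 7.37, 7.74 and 7.64 in WT and 6.72, 4.89 and 6.11 in SCR EBs, where replicate 2 lay apart from the other 2 arrays. The lines did not overlap on either day. The difference over the late days was 3.54 between KD and SCR EBs (SE 0.129, limma adjusted p = 1.47e-25).

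Icam2 read 7.84, 7.38 and 7.65 at day 12 and 7.74, 7.81 and 7.74 at day 22 in KD EBs, against 5.14, 4.51 and 4.99 and then 4.07, 3.95 and 3.91 in SCR EBs. KD arrays lay above all SCR arrays on both days, and the difference over the late days was 3.39 (SE 0.0833, limma adjusted p = 3.48e-31). Cd34, a sialomucin of capillaries and blood progenitors, read 8.57, 8.33 and 8.67 in 22-day KD EBs and 4.54, 4.70 and 4.77 in SCR EBs, after being lower in KD EBs at day 4, and differed by 2.54 over the late days. Cldn5 and Plvap, the other members lower at day 4, were also higher in late KD EBs, by 2.07 and 1.27. Ecscr differed by 2.28, Clec14a, a C-type lectin of tumour vessels, by 2.16 and Esam, an endothelial adhesion molecule of tight junctions, by 1.86. Clec14a lay under the lower quartile in 14 of the 18 groups. The other 4 of this role were under 2-fold over the mean of the late days. Their differences were 0.82 for Robo4, 0.76 for Pecam1, 0.48 for Mmrn2 (a matrix partner of Clec14a) and 0.11 for Eng (limma adjusted p = 0.204). Robo4 and Pecam1 were called higher at day 15, though not at day 12 or 22.

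Of the transcriptional regulators, Sox7 read 8.12, 8.08 and 8.14 in 15-day KD, 7.13, 6.96 and 6.97 in WT and 4.72, 4.34 and 4.44 in SCR EBs. The SCR arrays stayed near their level at day 0 (4.40 to 4.47) while both other lines lay above it. Over the late days Sox7 differed by 2.79 between KD and SCR EBs (SE 0.129, limma adjusted p = 3.85e-22). Sox18, which acts in arterial and lymphatic vessels, read 6.77, 7.04 and 6.84 in 15-day KD EBs and 4.19, 4.11 and 4.00 in SCR EBs, and differed by 2.59. Sox18 lay under the lower quartile in 13 of the 18 groups, 15-day SCR EBs among them. Erg, an ETS factor of settled endothelium, read 6.61, 6.30 and 6.32 in 15-day KD EBs and 3.75, 3.70 and 3.69 in SCR EBs, where it lay under the lower quartile on each day, and differed by 2.46. Fli1 differed by 2.19 and Lmo2 by 1.07. Etv2 at -0.64 and Tal1 at 0.17 (adjusted p = 0.206) were not called.

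Of the receptors, Kdr and Ptprb were called over the late days. Kdr read 8.65, 8.74 and 8.69 at day 12 in KD, 7.10, 7.56 and 7.33 in WT and 7.05, 6.47 and 6.68 in SCR EBs. By day 22 it was 7.00, 6.84 and 7.25 in KD, 6.44, 5.94 and 6.14 in WT and 5.38, 5.73 and 5.52 in SCR EBs. KD arrays were the highest on both days, although Kdr fell with time in each line, and the difference between KD and SCR EBs was 1.92 (SE 0.0847, limma adjusted p = 8.25e-23). Ptprb (VE-PTP), a phosphatase that acts on Tek and Cdh5, differed by 1.36. Tie1, an orphan partner of Tek, read 4.06, 3.91 and 4.11 in 15-day KD EBs and 3.11, 2.90 and 2.76 in SCR EBs. It lay under the lower quartile in all 18 groups and differed by 0.78 over the late days. Flt1 differed by 0.73, Tek by 0.56 and Flt4, the VEGF-C receptor of lymphatic vessels, by 0.40. On single late days Tie1 was called higher at day 15 and Flt1 at day 22.

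Esm1 was the 1 secreted member called in late EBs. It read 6.86, 6.19 and 7.07 in 15-day KD, 3.94, 3.28 and 3.95 in WT and 3.19, 3.34 and 3.77 in SCR EBs, so that WT and SCR arrays overlapped under the lower quartile and KD arrays lay above it. The difference was 3.13 (SE 0.106, limma adjusted p = 1.24e-26). Vwf differed by 0.68, Apln, the apelin ligand, by 0.22 and Egfl7, a matrix protein of growing vessels, by 0.20. Vwf was not at its highest in late EBs of any line: it read 5.41, 4.69 and 4.94 in undifferentiated KD cells and 3.82, 3.46 and 4.19 in 22-day KD EBs.

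Of the arterial, lymphatic, sinusoidal and signalling genes, Gja4 (connexin 37 of arterial endothelium) differed by 2.03, She, a Src homology adaptor of endothelial cells, by 1.67, Stab1, a scavenger receptor of sinusoids and macrophages, by 1.28, and Nos3 (endothelial nitric oxide synthase) by 1.09. Gja4 read 5.72 to 6.41 in 12-day and 4.08 to 4.97 in 22-day KD EBs, and lay under the lower quartile in all WT and SCR groups. Stab2 at 0.34, Rasip1, a Ras partner in tube formation, at 0.21 and Lyve1, the hyaluronan receptor of lymphatic vessels, at 0.14 (adjusted p = 0.0731) were not called. Lyve1 lay under the lower quartile in all 18 groups. At single days the calls of Nos3 and Ptprb at day 12 were lost without KD day 12 replicate 1 (0.98 and 0.96), that of Plvap at day 15 without SCR day 15 replicate 2 (1.00, just under the limit), and that of Gja4 at day 22 without SCR day 22 replicate 2 (1.00, just under the limit) or KD day 22 replicate 3 (0.84).

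**Figure D3:**
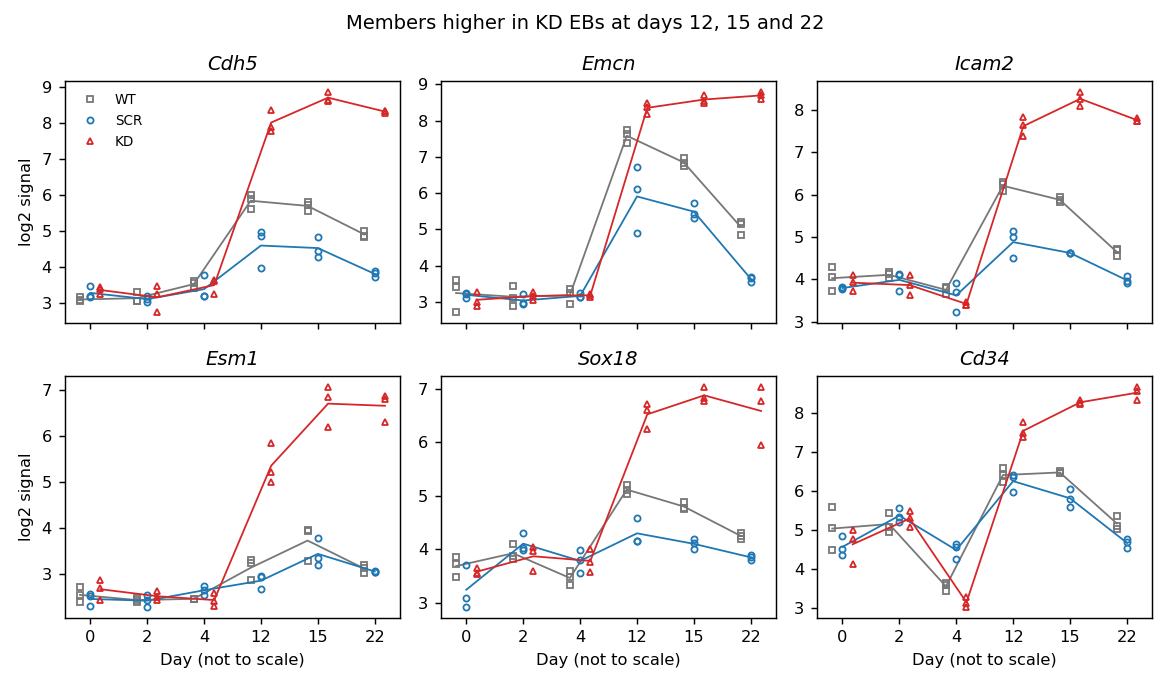
Log2 signal (y axis) of 6 members by day (x axis, not to scale); points are single arrays, 3 for each line and day, and lines join the group means. In each panel the KD arrays lie above the WT and SCR arrays of the same day from day 12 on.

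Against WT EBs members were also mostly higher in late KD EBs. The count was 13 higher at day 12 (4.88% of all probe sets), 19 at day 15 (10.4%) and 17 at day 22 (12.4%), with 0 lower at days 12 and 22 (4.21% and 7.37%) and 1 lower at day 15 (7.09%), which was Etv2 at -1.42 (limma adjusted p = 4.2e-08). At days 12 and 22, 27 and 29 members had an unadjusted p under 0.05. Over the mean of the 3 days 17 members were higher in KD than in WT EBs (9.11%) and 0 were lower in limma (5.15%). The median was 0.97, and 34 members had an unadjusted p under 0.05 in either direction. At an adjusted p under 0.05 with no minimum fold, 30 were higher and 3 lower. The 17 were all among the 21 of KD against SCR EBs, and the comparisons share the KD arrays. Esm1 differed by 2.92 (SE 0.106, limma adjusted p = 1.64e-25), Cdh5 by 2.86, Icam2 by 2.30, Erg by 2.11, Cd34 by 2.10 and Emcn by 2.04. The other 4 of the 21 were under 2-fold against WT EBs, with Sox7 at 0.97, Stab1 at 0.80, Nos3 at 0.70 and Plvap at 0.50. Tek and Egfl7 differed by -0.22 and -0.24, and Etv2 by -0.99 (adjusted p = 2.6e-10). Ptprb, at 1.01, was lost without any 1 of 8 arrays, at 0.93 to 0.99: WT day 12 replicates 1 and 3, WT day 15 replicate 2, WT day 22 replicate 3, KD day 12 replicate 1, KD day 15 replicate 2 and KD day 22 replicates 1 and 3.

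A smaller set of members separated SCR from WT EBs. Over days 12, 15 and 22, 4 members were lower in SCR than in WT EBs (1.7% of all probe sets) and 0 were higher in limma (3.02%). The median was -0.41 against -0.02 over all probe sets, and 33 members had an unadjusted p under 0.05 in either direction. At an adjusted p under 0.05 with no minimum fold, 31 were lower and 2 higher. The 4 were Sox7 at -1.81 (SE 0.129, limma adjusted p = 1.7e-15), Emcn at -1.49, Cdh5 at -1.17 and Icam2 at -1.09. These are all among the 21 members higher in KD than in SCR EBs, and both comparisons use the SCR arrays. For Cdh5 the 2 differences are set side by side as 4.03 against SCR and 2.86 against WT EBs, and for Emcn as 3.54 and 2.04. Tal1 went the other way in SCR EBs, where it read 5.83, 7.00 and 6.66 at day 22 against 4.57, 4.47 and 4.62 in WT EBs. Of 8 visceral endoderm and liver genes 8 were lower and 0 higher in SCR than in WT EBs over the late days (median -3.32). The part of such cells in the values of Sox7 and the other members was not tested.

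**Figure D4:**
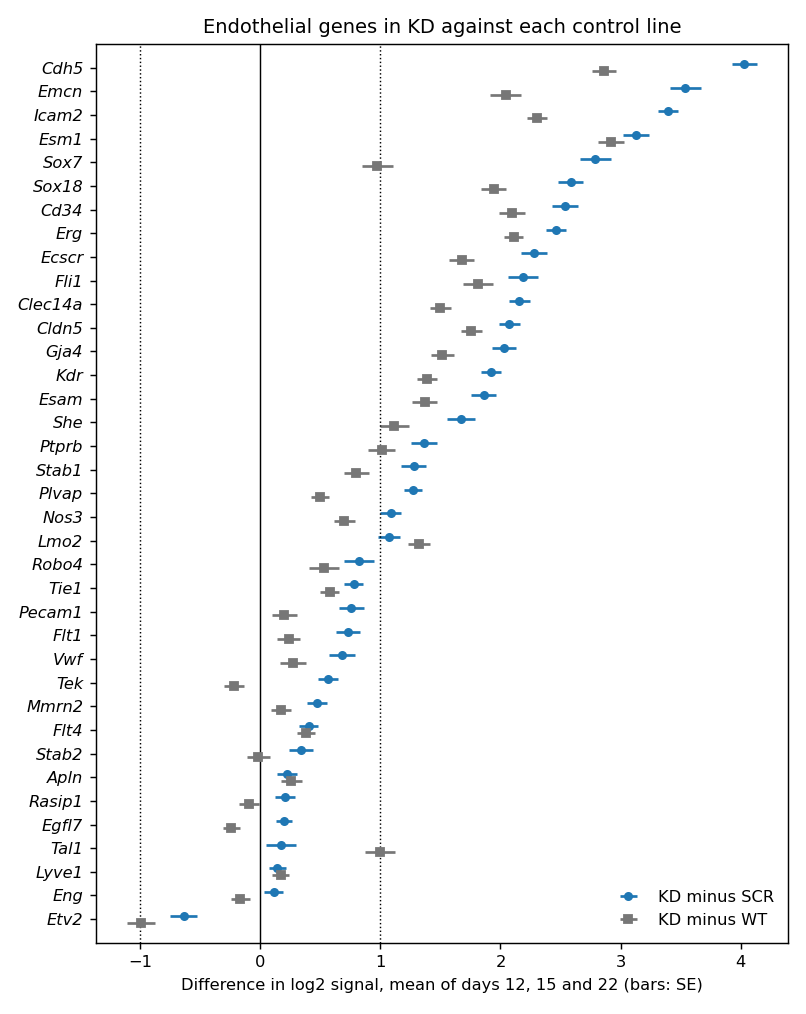
Difference in log2 signal (x axis) for each of the 37 members (y axis), over the mean of days 12, 15 and 22; circles are KD minus SCR, squares are KD minus WT, bars are moderated standard errors, and dotted lines mark 2-fold. Cdh5 stands highest against SCR EBs at 4.03 and Esm1 highest against WT EBs at 2.92.

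The time at which lines differed was itself tested, as the KD minus SCR difference over the late days less that at day 4, which rest on separate arrays. It was positive for 19 members (8.17% of all probe sets) and negative for 5 (4.53%). The 5 were the receptors Kdr and Flt1 and the regulators Tal1, Lmo2 and Etv2. The largest of the 19 were Cdh5 at 3.92 (SE 0.207, limma adjusted p = 3.12e-19), Cd34 at 3.88 and Icam2 at 3.60. Sox7 at 0.32 (adjusted p = 0.311) and Fli1 at 0.40 (adjusted p = 0.192) were called on neither side, and were higher in KD than in SCR EBs both at day 4 and later.

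**Figure D5:**
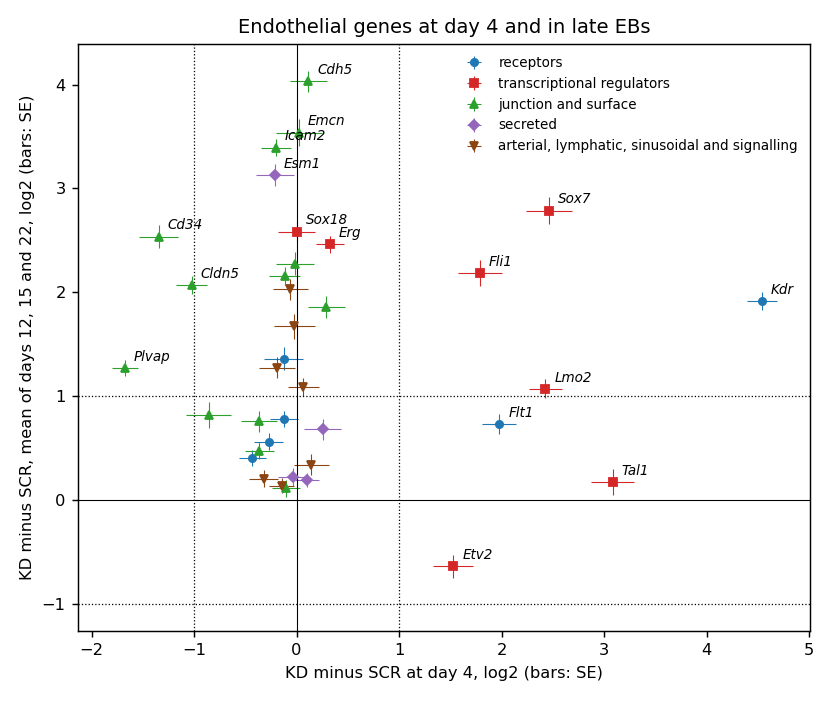
KD minus SCR difference in log2 signal at day 4 (x axis) and over the mean of days 12, 15 and 22 (y axis) for the 37 members, with marks by role, bars as moderated standard errors and dotted lines at 2-fold. Kdr lies farthest right at 4.54, Cdh5 highest at 4.03 near 0.11 on the x axis, and Sox7, Fli1, Lmo2 and Kdr pass 2-fold upward on both axes. Cd34, Plvap and Cldn5 pass 2-fold on both in opposite directions, lower at day 4 and higher later.

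From day 12 to day 22 Emcn, Cd34 and Fli1 fell in WT and SCR EBs and were not called in KD EBs. In WT EBs 7 members fell (2.94% of all probe sets) and 1 rose (1.36%), in SCR EBs 4 fell (2.18%) and 1 rose (4.4%), and in KD EBs 4 fell (4.11%) and 1 rose (6.79%). Emcn fell by 2.51 in WT and by 2.28 in SCR EBs and stood at 8.35 and 8.70 (means of 3 arrays) at days 12 and 22 in KD EBs. Cd34 fell by 1.24 in WT and by 1.58 in SCR EBs and its mean went from 7.55 to 8.52 in KD EBs. Fli1 fell by 1.30 in WT and by 1.18 in SCR EBs. Unlike those of Emcn and Cd34, its KD minus SCR difference was not called as changed between these days. Icam2 (-1.56), Stab1 (-1.25), Kdr (-1.16) and Cldn5 (-1.01) were the other falls in WT EBs, and Kdr (-1.19) the other fall in SCR EBs. In KD EBs Kdr fell by 1.66, Stab1 by 1.58, Gja4 by 1.52 and Stab2 by 1.11. The rises were Flt1 in WT (1.44), Tal1 in SCR (1.59) and Esm1 in KD EBs (1.31). The call of Cldn5 in WT EBs was lost without WT day 12 replicate 2 (-0.99), WT day 12 replicate 3 (-0.91) or WT day 22 replicate 2 (-0.92), and without SCR day 12 replicate 2 the SCR count was 9 in place of 5.

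The KD minus SCR difference was larger at day 22 than at day 12 for 6 members (4.78% of all probe sets) and smaller for 4 (2.27%). Emcn gained 2.62 (SE 0.317, limma adjusted p = 1.86e-08), Cd34 2.56, Lmo2 1.66, Esm1 1.11, Cdh5 1.09 and Icam2 1.04. Of these, Emcn, Esm1, Cdh5 and Icam2 lay under the lower quartile in SCR EBs of day 22. Tal1 changed by -1.66, Gja4 and Stab1 each by -1.26 and Sox7 by -1.02. Leaving out single arrays took away the calls of Cdh5 (SCR day 12 replicate 1 or 3, KD day 12 replicate 2: 0.91 to 0.97), Icam2 (the same 3 arrays: 0.91 to 0.99), Esm1 (KD day 12 replicate 2 or KD day 22 replicate 3: 0.93 and 1.00) and Sox7 (any of 6 arrays: SCR day 12 replicates 2 and 3, KD day 12 replicates 1 and 3, KD day 22 replicates 1 and 2: -0.97 to -0.90).

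Of the measured members, 27 had 1 probe set and 10 had several, 53 probe sets in all. All 4 of Flt1 gave the same direction at day 4 in KD against SCR EBs, at 0.62 to 2.70, and both of Fli1 were called (1.79 and 3.17). For Mmrn2 the probe set used was under 2-fold in late EBs (0.48), while its 3 others were called at 1.52, 1.53 and 1.61. The second probe set of Cdh5 had a mean of 3.14 over all arrays and a late difference of 0.33, against 4.03 for the one used, and the second one of Lyve1 differed by 0.71 against 0.14. The second probe set of Clec14a had a mean of 2.49. It was under 2-fold in late KD EBs, at 0.93 against SCR and 0.74 against WT EBs.

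Of 54 measured genes of vascular signalling outside the list (VEGF, angiopoietin, apelin, Notch, ephrin and BMP ligands and receptors, and transcription factors), 23 were higher (4.92% of all probe sets) and 4 lower (4.82%) in KD than in SCR EBs at day 4. In SCR against WT EBs 5 were higher (4.54%) and 21 lower (4.5%), and in KD against WT EBs 0 were higher and 0 lower in limma, with 7 at an unadjusted p under 0.05. Nrp1, a VEGF co-receptor, differed by 7.32, Sox17, an arterial and endodermal SOX factor, by 7.16, Aplnr, the apelin receptor of mesoderm and angioblasts, by 6.87 and Cxcr4, a chemokine receptor, by 5.78 between KD and SCR EBs. Between SCR and WT EBs these 4 differed by -7.35, -7.17, -7.02 and -5.99 in the same order. Over the late days 17 were higher (7.33%) and 2 lower (3.93%) in KD than in SCR EBs, led by Tcf21, a mesothelial and stromal factor, at 5.13, Tgfbr2 at 2.92, Mef2c at 2.21 and Plxnd1, a semaphorin receptor of endothelium, at 2.20. The lower ones were Klf2, a shear-responsive factor that ESCs also express (-1.94), and Apela, an apelin receptor ligand of ESCs (-2.12).

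Markers of other cell types were also higher in late KD EBs, where 7.33% of all probe sets were higher and 3.93% lower than in SCR EBs. Of 8 visceral endoderm and liver genes 6 were higher against SCR EBs (median 4.26), with Alb at 7.76, Ttr at 5.36 and Afp at 4.00, and 4 were higher and 2 lower against WT EBs. Of 6 cardiomyocyte genes 4 were higher against SCR EBs (median 3.41), with Myl7 at 4.71 and Tnnt2 at 3.91, and 4 against WT EBs. Of 10 measured mural genes 9 were higher against SCR EBs, with Kcnj8 at 4.34, Rgs5 at 3.98 and Acta2 at 2.23, and 9 of 10 against WT EBs. Of 15 haematopoietic genes 9 were higher against SCR EBs, led by the leukocyte genes Adgre1 at 3.37, Csf1r at 3.11 and Ptprc at 3.03, of 8 fibroblast and mesenchyme genes 8 were, and of 4 endocardial genes 2 were (Npr3 at 2.94 and Tmem100 at 1.75). Of 8 pluripotency genes 8 were lower. The summed signal of the 37 endothelial genes was 4017 to 5575 in KD EBs of days 12 to 22, 1998 to 2706 in WT and 1499 to 2035 in SCR EBs. That of the mural genes was 8404 to 11810 in KD, 977 to 3251 in WT and 933 to 4324 in SCR EBs, and that of the haematopoietic genes 1707 to 10970, 921 to 5865 and 505 to 2409 in the same order. The summed signal of the visceral endoderm and liver genes was 12520 to 36750 in KD, 8051 to 21900 in WT and 332.8 to 3822 in SCR EBs, and that of the cardiomyocyte genes 4109 to 14760, 259.4 to 3487 and 264.4 to 4555. The part of these cell types in the endothelial values was not tested. Cd34, Tal1, Lmo2, Fli1 and Stab1 are also expressed by blood cells, and the part of these cells in their values was also not tested.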

How the data were processed

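RNA of 54 samples (3 lines, 6 days, 3 arrays each) was hybridised to Affymetrix mouse expression arrays. The deposited values are log2 signals that the authors background-corrected, summarised and normalised with RMA. The submitters' processing notes name RMA, Affymetrix Expression Console and Partek 6.6, while the study's methods name R Bioconductor packages for the same step. Groups were taken from the sample labels. Of the 30939 probe sets, 25596 carried 1 gene symbol in the platform annotation, 685 several and 4658 none. Each gene was read from its probe set with the highest mean over all arrays. RMA values hold no counts, so no counting interval applies.

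Group means of the 18 groups were fitted on all 54 arrays with limma 3.58.1 in R 4.3.3 (lmFit, contrasts, eBayes), with no filter on dim probe sets and Benjamini-Hochberg adjustment within each contrast. A call needed an adjusted p under 0.05 and at least a 2-fold difference. Late values are the mean of days 12, 15 and 22. The scripts were tested on simulated data. The members, roles, marker lists and motifs were chosen with earlier results of these data known. The named members were, in each of the main comparisons, those with the largest differences past the threshold, every member called against the main direction, and the rest as ranges, counts or differences. Tables and figures were made with Python 3.11.15, pandas 2.3.3, numpy 2.4.6 and matplotlib 3.10.9. The alternatives were renormalising or centring the arrays, array weights, trended and robust variances, a filter on dim probe sets, other choices of probe set and threshold, fits on the compared arrays alone, the replicate number as a block, and leaving out arrays.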

Additional observations from a re-analysis of the deposited data

Results flagged for a closer look

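The KD minus SCR difference changed between day 4 and the late days (days 12, 15 and 22) by an interaction test in limma past the same threshold for 24 members, given here as the late difference less that at day 4, on the log2 scale. Among the receptors and regulators the values were -2.91 for Tal1, -2.62 for Kdr, -2.17 for Etv2, -1.35 for Lmo2 and -1.25 for Flt1. Among the junction and surface genes they were 3.92 for Cdh5, 3.88 for Cd34, 3.60 for Icam2, 3.52 for Emcn, 3.10 for Cldn5, 2.94 for Plvap, 2.29 for Ecscr, 2.27 for Clec14a, 1.68 for Robo4, 1.57 for Esam and 1.13 for Pecam1. Of the others, Esm1 gave 3.34, Sox18 2.59, Erg 2.13, Gja4 2.09, She 1.69, Ptprb 1.49, Stab1 1.47 and Nos3 1.02. Pecam1 was lost without SCR day 4 replicate 3 (0.97), and Nos3 without any 1 of 7 arrays, at 0.93 to 0.99: SCR day 4 replicate 1, SCR day 15 replicate 2, SCR day 22 replicate 2, KD day 4 replicate 3, KD day 12 replicate 1 and KD day 22 replicates 1 and 3.

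Within the late days the difference changed between day 12 and day 22 for 10 members by the same test. It gained 2.62 for Emcn, 2.56 for Cd34, 1.66 for Lmo2, 1.11 for Esm1, 1.09 for Cdh5 and 1.04 for Icam2. The values were -1.66 for Tal1, -1.26 for Gja4, -1.26 for Stab1 and -1.02 for Sox7. Each group holds 3 arrays, so no array was tested for standing apart from its group.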

How the results depend on the processing

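In 21 comparisons 256 member results were called. Of these, 178 were called under each alternative that gave the member 1 value, and 78 were lost under 1 or more. All 78 were among those lost when limma's treat tested against 2-fold. Single other probe sets of a member were not part of this count. Some of them were under 2-fold where the member was called, as for Cdh5 and Clec14a in late EBs. None of the 5730 values under the alternatives that were counted turned its sign. Counts of called members moved by over 1.5 times as follows, and except where the setting leaves out genes or samples or changes the threshold itself the cause was not tested. With only the brightest 60% of probe sets, which hold 18 of the 37 members, the counts were 9, 10 and 10 in KD against SCR at days 12, 15 and 22, 10 over the late days, 3 at day 2, 1 in KD against WT at day 4, 7 over the late days and 1 in SCR against WT over the late days. The same filter gave 11 for the late less day 4 difference, 3 for day 22 less day 12, 8 and 4 in WT EBs from day 4 to 12 and from day 12 to 22, 3, 4 and 2 in SCR EBs from day 0 to 4, 4 to 12 and 12 to 22, and 9 and 1 in KD EBs from day 4 to 12 and 12 to 22. With an adjusted p under 0.05 and no minimum fold the counts were 34 in KD against SCR over the late days and 9 at day 2, 4 and 33 in KD against WT at day 4 and over the late days, 17 and 33 in SCR against WT at day 4 and over the late days, 23, 33 and 24 in WT EBs from day 0 to 4, 4 to 12 and 12 to 22, 16, 17 and 15 in SCR EBs over the same steps, and 15 in KD EBs from day 12 to 22. With treat they were 0 in KD against WT at day 4, where 10 members had an unadjusted p under 0.05 in limma's plain test, 2 in SCR against WT over the late days, 3 in KD against SCR at day 2, 2 for day 22 less day 12, 2 in WT EBs from day 12 to 22, 3, 4 and 1 in SCR EBs over the 3 steps and 3 in KD EBs from day 12 to 22. With every probe set of a member counted they were 8 in KD against SCR at day 2, and 18, 10 and 19 in WT, SCR and KD EBs from day 0 to 4. Array weights and a fit on the compared arrays alone each gave 1 in KD against WT at day 4. Leaving out arrays, or all arrays of 1 replicate number, gave 1 to 3 members in KD against WT at day 4 and 4 to 9 in SCR EBs from day 12 to 22. Centring each array on its median moved the median of all probe sets by -0.11 in KD against WT over the late days, by -0.12 and -0.13 in WT and KD EBs from day 0 to 4, and by less than 0.1 in size in the other comparisons.

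Samples with the same replicate number deviated together up to day 4, where all 27 correlations between lines were positive (0.044 to 0.501), and less often later, where 18 of 27 were (-0.40 to 0.37). Every pair was over 0.1 in 6 of 18 comparisons by day, so the numbers were not taken to pair the samples. With the replicate number as a block the count was 21 in KD against SCR over the late days, as without it, and the block changed no count and no call of a member. The block was 1 effect for each replicate number over all days. It cannot take up deviations that differ between days, so pairing within a day was not tested. Signals near background limit the size of a change: 15 to 19 members lay under the lower quartile of their arrays in each line up to day 4.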
